A study of Mus musculus with 9 samples.

Results

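The genes described here act directly at, or just after, an activated G protein-coupled receptor: 6 regulators of G protein signalling (Rgs2, Rgs3, Rgs4, Rgs5, Rgs10 and Rgs16), the 2 beta-arrestins (Arrb1 and Arrb2) and 2 receptor kinases (Grk5 and Grk6). They were chosen by name, with earlier results of these data known, and every probe set that the array's probe table gives to one of them was taken. That gave 27 probe sets for the 10 genes, out of 45037 probe sets tested. Of these, 34945 carry the symbol of 1 gene, for 18193 genes in all. A probe set is a group of short probes against 1 transcript or part of it, and 8 of the 10 genes have more than 1.

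RNA was measured on 9 Affymetrix mouse arrays, 3 per group. All groups were primary white adipocytes of male C57BL6 mice aged 30 to 35 days, grown from the inguinal stromal-vascular fraction, so the cultures can hold other stromal cells besides fat cells. All were induced with dexamethasone, insulin, isobutylmethylxanthine and rosiglitazone, kept in insulin and rosiglitazone, and left in plain medium from day 6. On day 8, 1 group received PTH(1-34) and 1 group PTHrP(1-34), both at 100 ng/ml and for 4 h. The vehicle of the control group was not given in the sources used here. The labels call the replicates biological without saying whether they were separate mice or cultures, so the p-values measure the spread between these samples only.

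PTH and PTHrP bind the same receptor, PTH1R, which couples mainly to Gs and so raises cAMP, and also to Gq. RGS proteins speed the hydrolysis of GTP by G protein alpha subunits and so shorten the signal. Receptor kinases (GRKs) phosphorylate the occupied receptor, and beta-arrestins then bind it, uncouple it from the G protein and lead it to clathrin-coated pits, where it can go on signalling from endosomes.

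In these cells, the signal of the 2 brighter Rgs3 probe sets fell to 46.2% and 38.9% of the control mean over both peptides, that of Arrb1 rose to 162%, and smaller falls passed the test for probe sets of Rgs2, Rgs4 and Grk5. No probe set of Rgs5, Rgs10, Rgs16, Arrb2 or Grk6 passed. With PTH, 5 of the 27 probe sets were lower (18.5%, against 1.37% of all probe sets) and 1 was higher (3.70%, against 1.34%), at an adjusted p below 0.05. With PTHrP, 6 were lower (22.2%, against 1.2%) and 1 was higher (3.70%, against 1.19%). In the contrast of the mean of both peptides with control, here called the pooled contrast, 6 were lower (against 2.13% of all) and 1 was higher (against 2.0%). Some of these probe sets are of the same gene. By the brightest probe set, 2 of the 10 genes were lower and 1 was higher with each peptide. Over all genes the shares were 1.97% and 1.82% with PTH, and 1.81% and 1.57% with PTHrP. Since the genes were chosen with earlier results known, these shares are no test of the list. The 2 peptide comparisons share their 3 control arrays, so they are not independent of each other. The median log2 change of the 27 probe sets was -0.11 with PTH and -0.12 with PTHrP, beside -0.005 and -0.001 over all probe sets. Of the 27, 8 had all 6 treated arrays below all 3 controls (5.88% of all probe sets did) and 1 had them all above (5.74%). Throughout, p-values are from limma's two-sided test, adjusted by Benjamini and Hochberg over all 45037 probe sets, and changes are of log2(signal + 16), with n = 3 arrays per group. Signals of different probe sets have no common scale, so levels are compared only within a probe set.

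**Figure D1:**
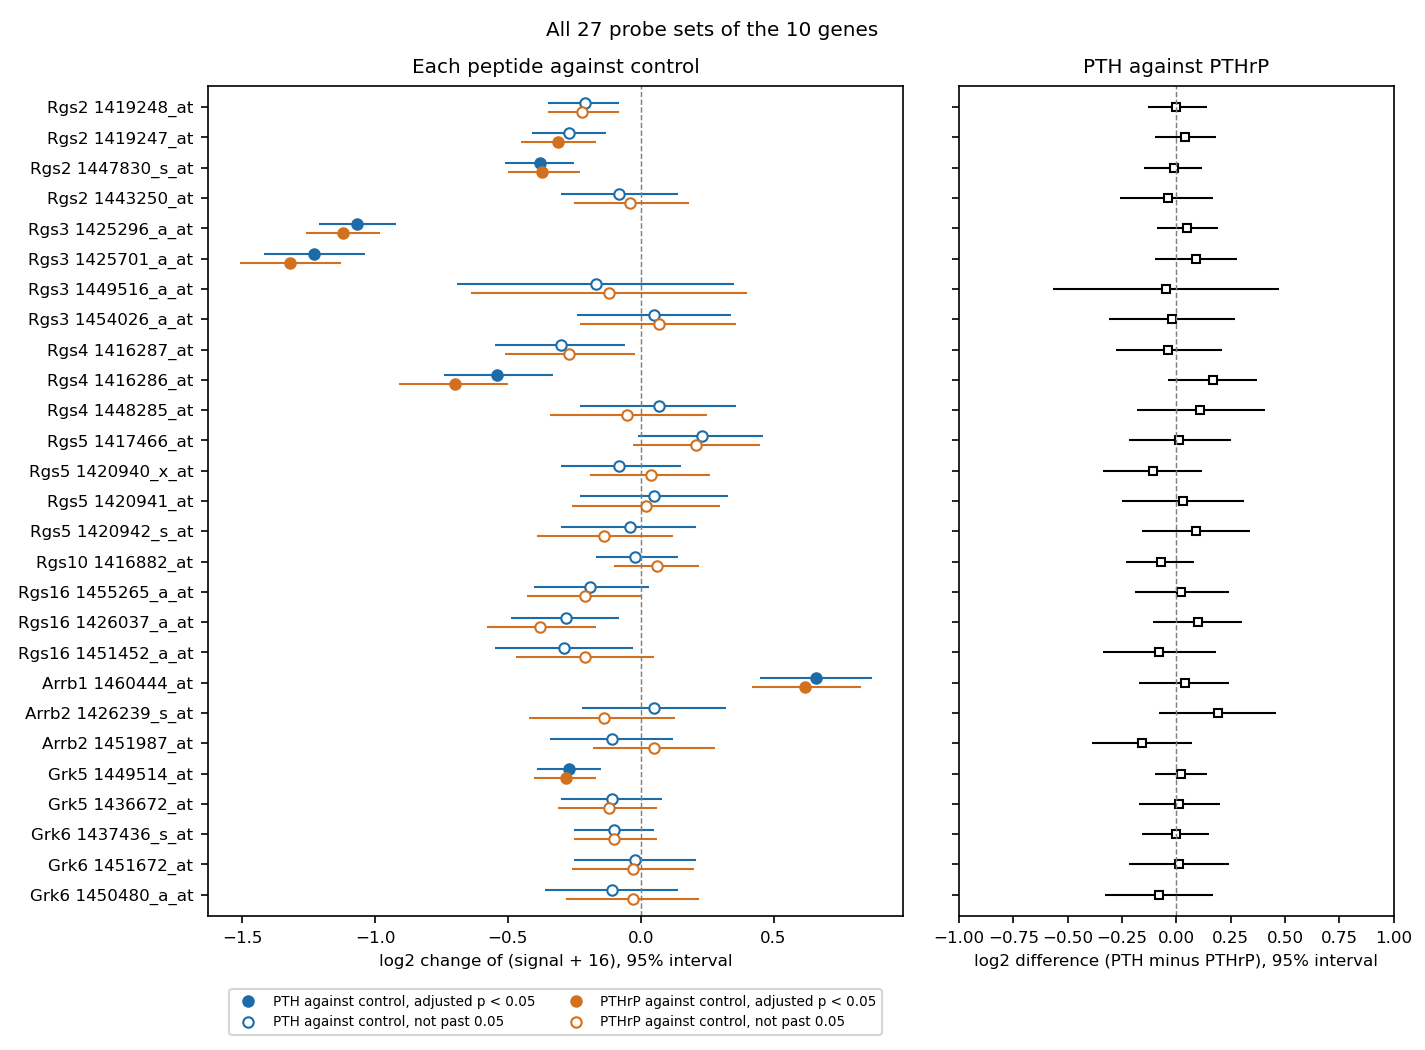
Log2 change of signal + 16 with each peptide against control (left) and the log2 difference of PTH minus PTHrP (right) for all 27 probe sets, with 95% intervals from limma; filled points passed an adjusted p of 0.05. The 2 upper Rgs3 probe sets lie between -1.32 and -1.07, Arrb1 lies at 0.66 and 0.62, and every interval of the right panel includes 0.

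Rgs3, an RGS protein that acts on Gi and Gq alpha subunits, was the member with the largest change. Its brightest probe set, 1425296_a_at, read 1048, 1112 and 1060 in the 3 controls, 471.5, 507.5 and 536.2 with PTH, and 485.0, 488.2 and 483.8 with PTHrP. No treated array came near the lowest control. The control mean was 1073 ± 33.8, and the treated means were 505.1 ± 32.4 (PTH) and 485.7 ± 2.26 (PTHrP; SD, n = 3). The log2 change was -1.07 (SE 0.062, adjusted p = 0.000228, limma) with PTH and -1.12 (SE 0.062, adjusted p = 0.000157) with PTHrP. A second Rgs3 probe set, 1425701_a_at, read 379.6, 360.5 and 397.3 in controls, 135.9, 167.5 and 155.2 with PTH, and 150.9, 140.8 and 133.7 with PTHrP. Here too the groups were far apart, with log2 changes of -1.23 (adjusted p = 0.000390, limma) and -1.32 (adjusted p = 0.000259). Ranked by the pooled log2 change, these were the 35th and the 11th largest falls of the 45037 probe sets, of which 49 fell by at least 1 on the log2 scale.

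The other 2 Rgs3 probe sets were dim. Their means over all arrays, 25.93 for 1449516_a_at and 24.27 for 1454026_a_at, lay below 29.03, the 40th percentile of all probe sets, called the dim level here. Their pooled log2 changes were -0.14 (95% interval -0.59 to 0.30) and 0.06 (-0.20 to 0.31), with treated and control arrays overlapping. The ending _a marks a probe set designed to match several transcripts of 1 gene, and which Rgs3 transcripts each one reads was not worked out. When all 4 were averaged, the Rgs3 log2 change was -0.60 with PTH and -0.62 with PTHrP (adjusted p = 0.000709 and 0.000553, limma). Both brighter probe sets passed when any 1 of the 9 arrays was left out, with adjusted p at most 0.00443.

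**Figure D2:**
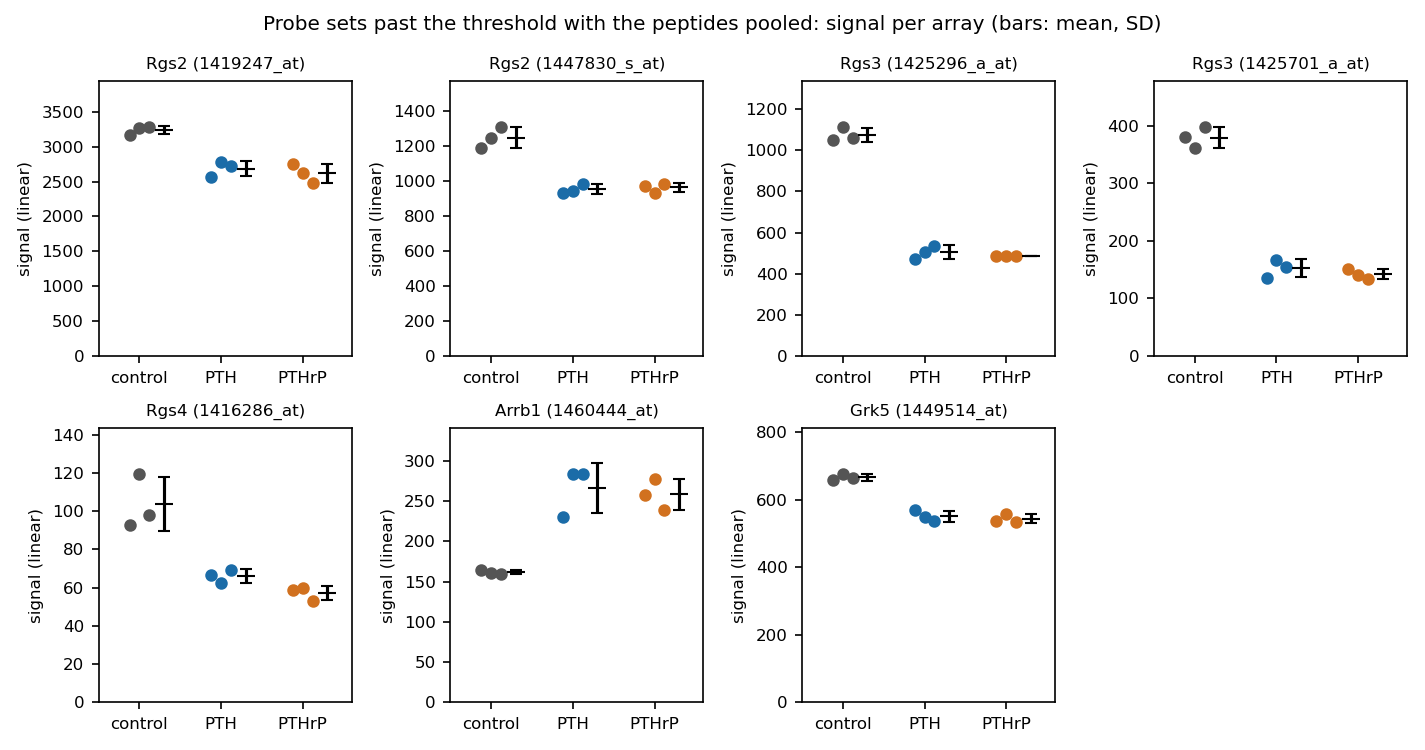
Signal on a linear scale in each of the 9 arrays (points) for the 7 probe sets that passed in the pooled contrast, with the mean and SD of each group beside the points (n = 3). In the 6 panels of Rgs2, Rgs3, Rgs4 and Grk5 all treated arrays lie below all controls, and in the Arrb1 panel all lie above.

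Rgs2, which acts chiefly on Gq alpha subunits and also restrains adenylyl cyclase, has 4 probe sets, of which 2 passed with PTHrP and 1 with PTH. Its brightest probe set, 1419248_at, read 3909, 3979 and 3690 in controls, 3218, 3421 and 3341 with PTH, and 3454, 3240 and 3258 with PTHrP. The groups did not overlap, but the difference was small beside the threshold: the log2 change was -0.21 with PTH and -0.22 with PTHrP, each with an adjusted p of 0.117 (limma), and -0.22 with adjusted p = 0.0562 in the pooled contrast. The probe set 1447830_s_at passed with each peptide. It read 1188, 1245 and 1308 in controls, 934.4, 943.9 and 985.8 with PTH, and 973.6, 934.6 and 982.6 with PTHrP, with log2 changes of -0.38 (adjusted p = 0.0146, limma) and -0.37 (adjusted p = 0.0171). The ending _s marks probes shared with another transcript, so this value may not be of Rgs2 alone. Another Rgs2 probe set, 1419247_at, read 3174, 3272 and 3279 in controls, 2559, 2780 and 2721 with PTH, and 2755, 2620 and 2481 with PTHrP. It fell with PTHrP (log2 change -0.31, adjusted p = 0.0430, limma), while with PTH the change was -0.27 (adjusted p = 0.0637). The dimmest, 1443250_at, had a pooled change of -0.06 (95% interval -0.24 to 0.13) and overlapping groups.

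The Rgs2 calls with each peptide changed when arrays were left out. For 1419247_at the call with PTHrP was lost without any 1 of the 9 arrays (adjusted p between 0.0621 and 0.125, limma); its pooled call was lost without control replicate 1, 2 or 3 (0.0605, 0.0858 and 0.0866), PTH replicate 1 (0.0518) or PTH replicate 3 (0.0597). For 1447830_s_at the call with PTH was lost when control replicate 2 (0.0563) or 3 (0.0525) was left out, or PTH replicate 1, 2 or 3 (0.0642, 0.0685 and 0.0547), and with PTHrP without control replicate 2 (0.0602), control replicate 3 (0.0571) or PTHrP replicate 1 or 2 (0.0637 and 0.0631); its pooled call passed in each case. The probe set 1419248_at passed in none of the fits with 1 array left out. It passed with both peptides with 64 in place of 16 added before the log (adjusted p = 0.0303 and 0.0302, limma). It also passed when the dimmest 40% of probe sets were left out (0.0398 and 0.0402). Both settings gave more calls over all probe sets as well. The mean of the 4 Rgs2 probe sets passed in a fit adjusted over genes (0.0196 and 0.0229).

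Rgs4, which acts on Gi and Gq alpha subunits, has 3 probe sets, of which 1 passed with each peptide. The probe set 1416286_at read 92.95, 119.5 and 98.14 in controls, 66.42, 62.42 and 69.24 with PTH, and 58.83, 59.65 and 52.77 with PTHrP. All treated arrays were below all controls, with log2 changes of -0.54 (SE 0.090, adjusted p = 0.0200, limma) and -0.70 (SE 0.090, adjusted p = 0.00605). A probe set of nearly the same mean signal, 1416287_at, read 84.20, 99.56 and 84.09 in controls, 71.26, 68.36 and 67.94 with PTH, and 65.01, 63.71 and 87.42 with PTHrP. PTHrP replicate 3 reached into the controls there, and the changes of -0.30 and -0.27 did not pass (adjusted p = 0.227 and 0.316); without that array the pooled contrast had adjusted p = 0.0342. The third, 1448285_at, had a pooled log2 change of 0.01 (95% interval -0.24 to 0.27). Because the signal is low, the size for 1416286_at depends on the number added before the log: with 1 in place of 16 the log2 change was -0.63 with PTH and -0.84 with PTHrP, and with 64 it was -0.36 and -0.47. Its call with PTH was lost without control replicate 3 (adjusted p = 0.0560) or PTH replicate 1, 2 or 3 (0.0721, 0.0878 and 0.0725), while with PTHrP it passed without any 1 array (at most 0.0304).

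The promoters of the 3 RGS genes with falls are shown with matches to the core of the cAMP response element (CRE), through which cAMP acts on many genes. A search found the core in 2 of the 11 promoter windows of the members, those of Rgs2 and Rgs4. Over all promoter windows 17.8% held it, which is near that share. None of the other members with a promoter sequence held it. A part of the CRE in the changes was not tested. The sequences are the 250 bases upstream of the transcription start in RefSeq (GRCm38.p6), 5′ to 3′ on the gene's strand, with CRE cores in capitals. RefSeq's table held 11 such windows for 8 of the 10 genes; Arrb1 and Arrb2 were not matched. The core searched was TGACG on either strand, so its reverse complement CGTCA counts too, and the full site TGACGTCA, which contains it, was searched as well. Rgs2 is at chr1:144004150-144004399 (minus strand), Rgs4 at chr1:169747643-169747892 (minus strand), and Rgs3 has one start behind chr4:62559597-62559846 and another behind chr4:62619422-62619671 (plus strand).
Rgs2: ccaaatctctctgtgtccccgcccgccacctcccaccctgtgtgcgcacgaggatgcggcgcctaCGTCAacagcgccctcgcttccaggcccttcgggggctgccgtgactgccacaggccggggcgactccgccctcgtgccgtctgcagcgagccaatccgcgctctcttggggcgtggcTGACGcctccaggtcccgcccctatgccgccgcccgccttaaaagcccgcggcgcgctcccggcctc
Rgs4: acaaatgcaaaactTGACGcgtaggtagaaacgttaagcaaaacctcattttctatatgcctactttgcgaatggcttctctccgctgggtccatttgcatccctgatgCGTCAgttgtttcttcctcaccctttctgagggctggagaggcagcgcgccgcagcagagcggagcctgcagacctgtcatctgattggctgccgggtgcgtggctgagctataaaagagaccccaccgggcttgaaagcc
Rgs3, first start: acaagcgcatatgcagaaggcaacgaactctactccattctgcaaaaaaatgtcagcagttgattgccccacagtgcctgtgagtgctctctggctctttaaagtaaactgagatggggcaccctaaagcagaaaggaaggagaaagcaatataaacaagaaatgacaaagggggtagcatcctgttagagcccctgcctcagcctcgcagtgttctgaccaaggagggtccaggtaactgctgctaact
Rgs3, second start: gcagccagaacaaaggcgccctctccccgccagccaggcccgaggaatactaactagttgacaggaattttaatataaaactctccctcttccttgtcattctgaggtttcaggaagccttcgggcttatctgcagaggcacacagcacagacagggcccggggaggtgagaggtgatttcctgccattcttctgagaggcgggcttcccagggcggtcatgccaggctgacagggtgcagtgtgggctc

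Rgs2 held 2 cores, beginning 185 and 67 bases upstream of the start, and Rgs4 held 2, at 236 and 141 bases upstream. Neither Rgs3 window held one, and no member window held the full site. Of the 11 member windows, 2 held at least 1 core, which is near the share over all windows. Over all 32851 promoter windows of the same length, 17.8% held at least 1 core, 3.9% held 2 or more and 1.55% held the full site. These matches describe the letters in the window and say nothing of binding. Rgs4 and Rgs5 are adjacent protein-coding genes on chromosome 1 in the RefSeq order.

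Rgs5, known as a marker of pericytes, did not pass in any of 4 probe sets. Its brightest probe set, 1417466_at, read 74.55, 55.12 and 57.09 in controls, 67.85, 78.45 and 79.02 with PTH, and 70.79, 71.04 and 80.68 with PTHrP. Control replicate 1 lay among the treated arrays, and the log2 changes of 0.23 and 0.21 did not pass (adjusted p = 0.373 and 0.427, limma). The 3 other probe sets had means of 31.42, just above the dim level, and 17.99 and 13.05, below it, and pooled changes between -0.09 and 0.03. Rgs10, an RGS protein of leukocytes among other cells, has 1 probe set, which read 299.4, 301.1 and 348.4 in controls, 313.3, 304.8 and 317.9 with PTH, and 320.6, 330.0 and 336.9 with PTHrP. Its groups overlapped, and the pooled log2 change was 0.02 (95% interval -0.12 to 0.16).

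Rgs16, which acts on Gi and Gq alpha subunits, had lower means with the peptides in all 3 probe sets, but none passed as a single probe set. The probe set 1426037_a_at read 322.7, 308.3 and 262.8 in controls, 227.0, 260.1 and 238.3 with PTH, and 210.4, 235.9 and 228.7 with PTHrP, so that all treated arrays lay just below the lowest control. Its log2 change was -0.28 (adjusted p = 0.174, limma) with PTH, -0.38 (adjusted p = 0.0788) with PTHrP and -0.33 (adjusted p = 0.0563) in the pooled contrast. Without control replicate 3, its lowest control, the pooled contrast had adjusted p = 0.0384 and PTHrP had 0.0481. The brightest, 1455265_a_at, and the dimmest, 1451452_a_at, had pooled changes of -0.20 (adjusted p = 0.266) and -0.25 (adjusted p = 0.250), with overlapping groups. The mean of the 3 Rgs16 probe sets did pass in a fit adjusted over genes, with adjusted p = 0.0452 with PTH and 0.0410 with PTHrP (limma).

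**Figure D3:**
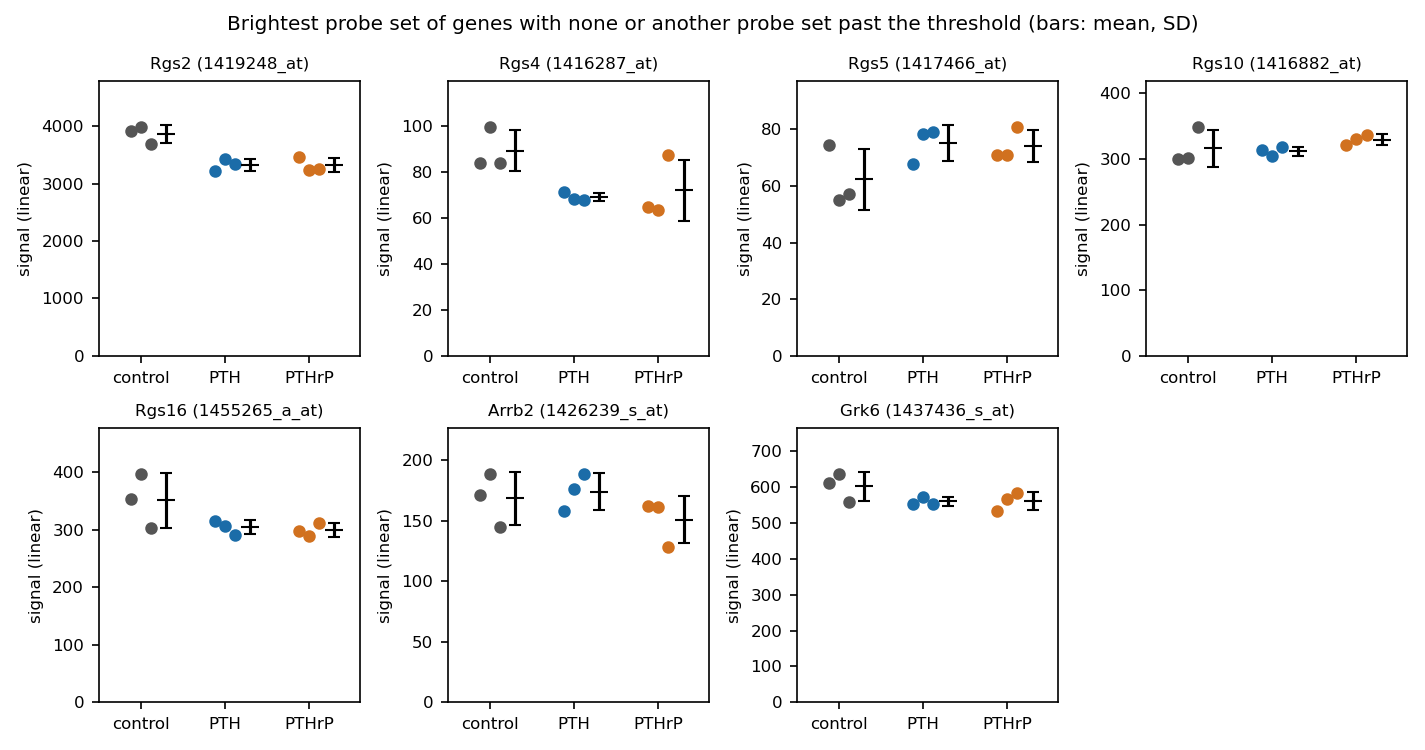
Signal on a linear scale in each of the 9 arrays (points) for the brightest probe set of the 7 genes whose brightest probe set did not pass in the pooled contrast, with the mean and SD of each group beside the points (n = 3). Treated and control arrays overlap in every panel but that of Rgs2.

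Of the beta-arrestins, Arrb1 passed with each peptide and Arrb2 with neither. Arrb1, which codes for beta-arrestin 1, has 1 probe set, 1460444_at. It read 164.8, 161.4 and 159.2 in controls, 230.7, 284.1 and 283.8 with PTH, and 258.1, 278.0 and 239.5 with PTHrP. All 6 treated arrays were above all controls, and the controls varied little (161.8 ± 2.84, against 266.2 ± 30.7 with PTH and 258.5 ± 19.3 with PTHrP; SD, n = 3). The log2 change was 0.66 (SE 0.090, adjusted p = 0.00845, limma) with PTH and 0.62 (SE 0.090, adjusted p = 0.0112) with PTHrP, and 0.64 in the pooled contrast, the 172nd largest rise of all probe sets. With PTH the call held without any 1 array (adjusted p at most 0.0474); with PTHrP it was lost without PTHrP replicate 1 (0.0515) and kept without any of the other 8.

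Arrb2, which codes for beta-arrestin 2, had 2 probe sets of which neither passed. 1426239_s_at read 171.4, 188.6 and 144.9 in controls, 157.6, 175.8 and 188.4 with PTH, and 162.3, 161.3 and 128.5 with PTHrP. 1451987_at read 153.1, 133.9 and 160.5, then 118.6, 138.0 and 156.2, then 161.8, 147.2 and 154.5 in the same order. All groups overlapped, and the pooled log2 changes were -0.05 (95% interval -0.28 to 0.19) and -0.03 (-0.23 to 0.17). Both intervals lie below the lower bound of Arrb1 (0.64, 0.46 to 0.82), but the difference between the 2 genes was not tested.

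Of the receptor kinases, Grk5, a membrane-bound kinase, fell slightly. Its brighter probe set, 1449514_at, read 656.8, 676.7 and 663.7 in controls, 568.5, 548.8 and 535.8 with PTH, and 538.2, 558.5 and 534.2 with PTHrP. The groups did not overlap, and the spread within each was small, with means of 665.7 ± 10.1 (control), 551.0 ± 16.4 (PTH) and 543.6 ± 13.0 (PTHrP; SD, n = 3). The log2 change was -0.27 (SE 0.052, adjusted p = 0.0373, limma) with PTH and -0.28 (SE 0.052, adjusted p = 0.0290) with PTHrP. Both calls sat close to the threshold: with any 1 of the 9 arrays left out the adjusted p was 0.0519 to 0.159 with PTH and 0.0507 to 0.108 with PTHrP, so neither passed, and the pooled call (0.0133) was lost without control replicate 2 (0.0621) or control replicate 3 (0.0531). Averaged over its 2 probe sets, the change was -0.19 with PTH (adjusted p = 0.0965) and -0.20 with PTHrP (0.0782). The dimmer probe set, 1436672_at, had a pooled change of -0.12 (adjusted p = 0.488).

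Grk6, a related kinase, did not pass in any of 3 probe sets. The brightest, 1437436_s_at, read 609.4, 636.3 and 557.4 in controls, 551.5, 572.3 and 553.3 with PTH, and 533.6, 566.6 and 583.3 with PTHrP. Treated arrays overlapped the lowest control, and the pooled log2 change was -0.10 (95% interval -0.23 to 0.03, adjusted p = 0.475, limma). The other 2 had changes of -0.03 and -0.07.

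The plot of change against signal sets the 27 probe sets among all others: 23 of them were above the dim level, and the 4 at or below it belong to Rgs3 and Rgs5.

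**Figure D4:**
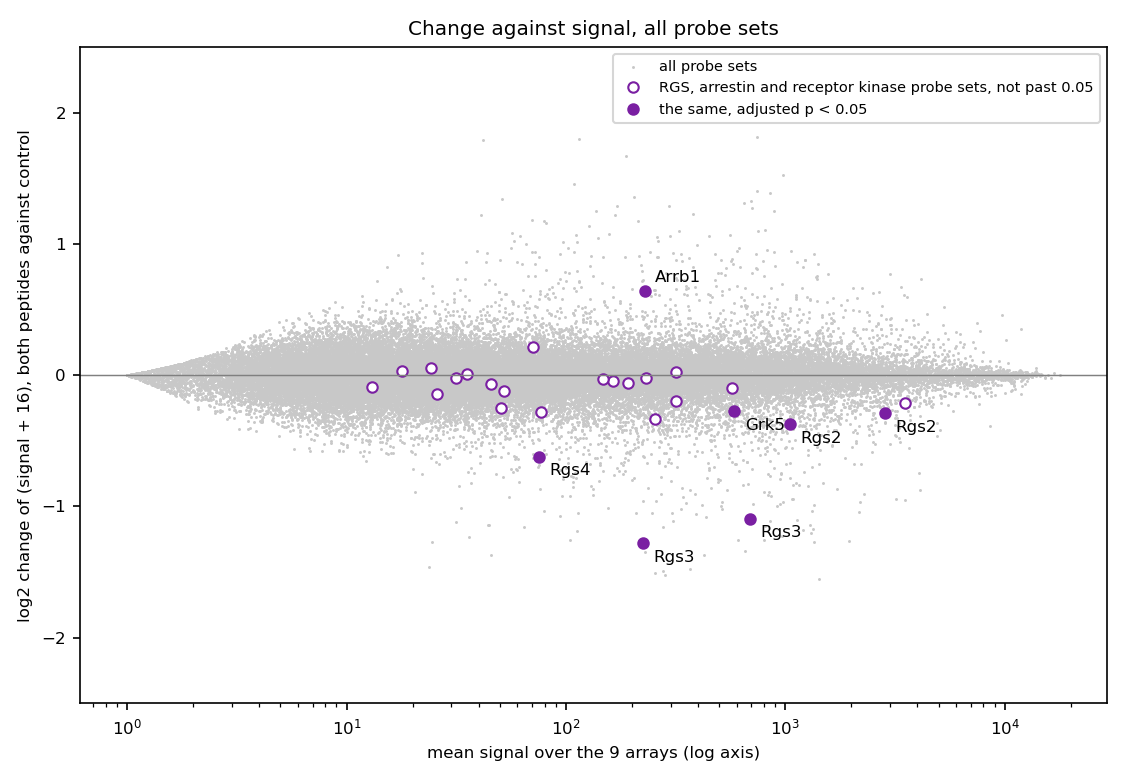
Pooled log2 change of signal + 16 against the mean signal over the 9 arrays (log axis) for all 45037 probe sets (grey) and the 27 of the RGS, arrestin and receptor kinase genes (purple; filled where adjusted p was below 0.05); 2 probe sets lie beyond the drawn range of 2.5 on either side. The brighter Rgs3 probe sets lie at -1.09 and -1.28, the 35th and the 11th largest falls, and Arrb1 lies at 0.64, the 172nd largest rise.

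PTH and PTHrP were compared directly at the same dose and time. None of the 27 probe sets differed between them at an adjusted p below 0.05, nor at an unadjusted p below 0.05 in limma. Over all 45037 probe sets the counts were 0 (0.0%) and 1911. With so few over all probe sets, none among 27 does not set the members apart. The smallest unadjusted p among the 27 was 0.0977, for Rgs4 1416286_at, whose difference (PTH minus PTHrP) was 0.17 on the log2 scale (95% interval -0.04 to 0.37). For Rgs3 1425296_a_at it was 0.05 (-0.09 to 0.19), for Arrb1 0.04 (-0.17 to 0.24) and for Grk5 1449514_at 0.02 (-0.10 to 0.14). The intervals reached 0.12 to 0.52 to either side of the difference, with a median of 0.22. With 3 arrays per group, a difference smaller than its own interval's reach could not be told from 0. The intervals are not adjusted for the number of probe sets, so a larger difference could still miss the adjusted threshold.

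Other genes of the same machinery mostly did not pass. Of 99 listed genes in 7 groups, 94 were measured, and each was read by its brightest probe set. With PTH, 1 was higher (against 1.82% of all genes by their brightest probe set) and 1 lower (1.97%), and with PTHrP again 1 was higher (1.57%) and 1 lower (1.81%). The gene that rose was Arrdc3, an arrestin-domain protein, from 828.6 ± 79.9 in controls to 1217 ± 23.4 with PTH and 1302 ± 26.8 with PTHrP (log2 changes 0.55 and 0.65, adjusted p = 0.00778 and 0.00359, limma). The gene that fell was Slc9a3r1, which codes for the scaffold NHERF1 that binds the tail of the PTH receptor, from 342.8 ± 19.5 to 241.6 ± 20.8 and 231.5 ± 22.8 (-0.48 and -0.54, adjusted p = 0.0314 and 0.0204); the receptor's own gene, Pth1r, changed by -0.43 with each peptide (adjusted p = 0.0360 and 0.0348). The Arrdc3 calls held without any 1 array. The Slc9a3r1 call with PTH was lost without any 1 control or PTH array (adjusted p 0.0789 to 0.122) and with PTHrP without any 1 control or without PTHrP replicate 1 or 3 (0.0584 to 0.0853). The Pth1r call was lost with PTH without any 1 array but PTH replicate 3 (0.0534 to 0.133), and with PTHrP without any 1 control or PTHrP array or PTH replicate 2 (0.0643 to 0.129). Arrdc3 was 1 of 6 arrestin-domain genes, and Slc9a3r1 was 1 of 26 of clathrin endocytosis and receptor sorting. None passed with either peptide among 17 other RGS genes, 5 other receptor kinase and visual arrestin genes, 15 G protein alpha subunits, 16 beta and gamma subunits and 9 other G protein modulators. The list medians lay between -0.07 and 0.01 with each peptide. In the pooled contrast 1 of the 94 genes was higher and 4 were lower, beside 2.0% and 2.13% of all probe sets. Those shares are of probe sets, not of genes by their brightest probe set, so they are not like for like. Gna14, an alpha subunit of the Gq family (-0.37, adjusted p = 0.0418, limma), fell in the pooled contrast as well. So did Gpsm2 (-0.31, 0.0298) and Ric8b (-0.25, 0.0310), the last a chaperone of Gs alpha. Gna14 and Ric8b lost the call without any 1 array (0.0628 to 0.135 and 0.0504 to 0.110). They also lost it when each gene's probe sets were averaged (0.29 and 0.436). Gpsm2 lost it without any 1 control, PTH replicate 2 or 3 or PTHrP replicate 1 or 2 (0.0506 to 0.0987).

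The cultures were checked against marker lists, since several members are known from other cells. All 9 measured adipocyte markers were above the dim level, Adipoq at 13618 in controls, and their summed signal overlapped between groups (69191 to 71479 in controls, 70112 to 73629 with PTH and 68253 to 72818 with PTHrP). None of the 9 passed with either peptide. In the pooled contrast 1 of them, Cidec, was higher (log2 change 0.29, adjusted p = 0.0316, limma). All 10 markers of smooth muscle and pericytes were above the dim level too, and the sum of their signals, most of it from Acta2 and Tagln (12821 and 7392 in controls), was lower in every treated array: 26922 to 27668 in controls, 25101 to 25460 with PTH and 24177 to 25552 with PTHrP. Of these markers, Myh11 fell with each peptide (-0.38 and -0.45, adjusted p = 0.0457 and 0.0231, limma). Pdgfrb did so too (-0.31 and -0.35, adjusted p = 0.0304 and 0.0203, limma). Whether these calls held with 1 array left out is not given here. The other 8 did not pass, Acta2 (-0.05 and -0.09) and Tagln (-0.11 and -0.14) among them. The 10 did not move one way: the pericyte markers Kcnj8 (0.46 with PTH and 0.37 with PTHrP), Abcc9 (0.14 and 0.21) and Cspg4 (0.05 and 0.11) had higher means, and the list's median log2 change was -0.08 and -0.10. The falls of Rgs2, Rgs3, Rgs4 and Grk5 go the same way as that sum, and its part in them was not tested; fewer cells of a type and less RNA per cell cannot be told apart in bulk RNA. Of 9 measured preadipocyte and fibroblast markers 8 were above it, with sums of 37953 to 38520, 37315 to 38192 and 36135 to 39066 in controls, with PTH and with PTHrP. Of 10 macrophage markers 5 were above the dim level, with sums of 896.3 to 978.1, 946.7 to 1070 and 946.0 to 1034. Of 8 endothelial markers 3 were above it (sums 309.5 to 354.3, 247.4 to 289.2 and 251.2 to 334.5), and of 8 lymphocyte and other leukocyte markers 1 was (227.8 to 233.8, 198.2 to 235.0 and 208.9 to 239.5). No gene of these 4 lists passed with either peptide. The actin 3'/5' signal ratio, a sign of RNA quality, was 1.45 to 1.51 in controls, 1.59 to 1.65 with PTH and 1.52 to 1.61 with PTHrP, so all treated arrays lay above all controls. The Gapdh ratio was 0.95 to 0.985, 0.980 to 0.988 and 0.931 to 0.975 in the same order. Each peptide group overlapped the controls in it, but all PTH arrays lay above all PTHrP arrays. The part of either ratio in the changes was not tested. The median signal per array was 48.15 to 52.56.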

How the data were processed

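RNA was labelled as biotin-cRNA by the standard Affymetrix protocol, per the labels. The values are probe set intensities as deposited by the authors; how they were summarised and scaled was not given in the sources used here. A linear scale was inferred from the array maxima (17113 to 18614), on which every fold here rests. Of 45101 probe sets, 64 array controls were left out. Genes come from the platform's probe table; a gene is represented by its brightest probe set where lists are counted. log2(intensity + 16) was fitted with limma 3.58.1 (R 4.3.3; Python 3.11.15 for summaries), 1 mean per group over 9 arrays, tested on simulated data. The arrays' number limits the precision.

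The members, gene lists, the rule for named genes and the alternatives were chosen with earlier results of these data known. The rule names all 10 genes with all probe sets, Pth1r, in each pathway list up to 4 genes with the largest change among those passing with either peptide, and the 3 genes most like each member that passes with both. Gna14, Gpsm2, Ric8b and the marker genes named are outside it and were picked after their values were seen. The lists were other RGS genes, other receptor kinases and visual arrestins, arrestin-domain genes, alpha subunits, beta and gamma subunits, other G protein modulators, and clathrin endocytosis and receptor sorting, beside 6 marker lists. Alternatives were quantile normalization, 2 centrings, pseudocounts of 1 and 64, leaving out the dimmest 40%, 2 gene summaries, a trended robust variance, array weights, a replicate block, only the groups compared, and each array left out in turn.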

Additional observations from a re-analysis of the deposited data

How the results depend on the processing

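Of 20 calls of member probe sets (each probe set and comparison), 0 reversed direction under any alternative and 11 passed in all of them: both brighter Rgs3 probe sets in each comparison, Rgs4 1416286_at with PTHrP and pooled, Arrb1 with PTH and pooled, and Rgs2 1447830_s_at pooled. With 1 array left out, 3 to 5 member probe sets passed with PTH (6 with all arrays), 3 to 5 with PTHrP (7) and 5 to 8 in the pooled contrast (7). Same-numbered arrays of different groups showed little shared deviation (r over 0.1 in 2 of 9 pairs, -0.20 to 0.17). Of the 9 arrays, 3 were most like one of their own number. With 3 arrays per group, these values cannot exclude that the numbers pair the arrays. With the replicate block 3 member probe sets passed with PTH, 4 with PTHrP and 5 pooled. The calls in limma over all probe sets then went from 1217 to 518 (PTH), 1076 to 467 (PTHrP) and 1860 to 949 (pooled). Fitting only the groups compared left 4 with PTHrP. Averaging each gene's probe sets gave 5 genes past the threshold with PTHrP (3 by the brightest probe set; Rgs2, Rgs4 and Rgs16 joined and Grk5 dropped out) and 6 pooled (3; the same 3 joined). The averages were adjusted over 18193 genes, and the brightest probe sets over 45037 probe sets. These counts are therefore not like for like. Values of members that did not pass went past the threshold in 34 of 1698 alternative fits, all of Rgs2, Rgs4 or Rgs16. Over all probe sets the calls with PTH, PTHrP and pooled were 2214, 1996 and 3017 with 64 added, 2231, 1998 and 3093 without the dimmest 40%, and 2611, 2375 and 3384 with a trended robust variance. Fitting only the groups compared gave 695 and 365. With 1 array left out the fewest were 398, 468 and 860. The cause of these moves was not tested.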

Other observations

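For each member whose brightest probe set passed with both peptides, the 3 genes with the most alike signal over the 9 arrays were listed among 18192 others, by Pearson's r of log2 values. For Rgs3 they were Tmem119 (r = 0.997), Herpud1 (0.995), an endoplasmic reticulum stress gene, and Pdlim2 (0.994), with pooled log2 changes of -0.57, -0.55 and -0.75. For Grk5 they were Lratd2 (0.991), Ccdc80 (0.990) and Jdp2 (0.990), a partner of AP-1 factors, with changes of -1.04, -0.16 and -0.58. For Arrb1 they were Arhgap29 (0.990), Senp2 (0.988), a SUMO protease, and Slc2a3 (0.987), a glucose transporter, with changes of 0.14, 0.27 and 0.89. The pooled changes of Ccdc80 and Arhgap29 did not pass (adjusted p = 0.0911 and 0.15, limma). These are descriptions of 9 arrays in 3 groups, whose r is set mostly by the difference between control and treated arrays: 201 genes had r above 0.95 with Rgs3, 170 with Grk5 and 173 with Arrb1.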
